A study of Mus musculus with 9 samples.

Results

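The genes described here are 8 genes used as marks of macrophages, the phagocytes that live in the dermis or enter it from the blood: Cd68, Csf1r, Lyz2, Mrc1, Cd163, C1qa, C1qb and C1qc. They were taken by gene symbol from count tables of 23282 entries, and each symbol was found once. Expression was measured by 3′-tag sequencing of total RNA from the back skin of wild-type C57BL/6 (B6) mice, 24 h after treatment, in 3 groups of 3 libraries. The first group was tape-stripped and given a cream with nano-sized graphene oxide (NGO, 50 µg in 100 µL per mouse). The second was tape-stripped and given control cream. The third is labelled as unstripped with control cream, although the treatment protocol places cream on stripped areas alone. Age and sex are not in the labels, and nothing there says that the 3 replicates of a group were separate mice, so the p-values given here cover library-to-library spread, which may be technical.

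Dermal macrophages take up dead cells, pathogens and debris and help to start and to end inflammation after injury. Some are long-lived residents, while others come from monocytes that leave the blood and mature in the tissue. Cd68 encodes a lysosomal membrane glycoprotein of macrophages, and Csf1r the receptor through which the growth factors CSF1 and IL-34 keep macrophages and epidermal Langerhans cells alive. Lyz2 encodes lysozyme M, made by macrophages, monocytes and neutrophils. Mrc1 encodes the mannose receptor CD206 and Cd163 the scavenger receptor for haemoglobin bound to haptoglobin, both used as marks of resident or repair-type macrophages. C1qa, C1qb and C1qc encode the 3 chains that build C1q, the recognition molecule of the classical complement pathway, which macrophages secrete.

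In these tissue samples, fewer cells of a type and less RNA per cell cannot be told apart. Library totals ran from 2019739 to 6303322 counts. Replicate libraries correlated across genes (log2 CPM, where CPM is the count scaled to the normalised library size) at 0.746 to 0.770 in NGO-treated, 0.639 to 0.710 in stripped control and 0.850 to 0.911 in unstripped skin. Skeletal muscle markers took 2.21% to 4.27% of counts in NGO-treated, 4.29% to 9.29% in stripped control and 0.00841% to 0.141% in unstripped libraries. Basal keratinocyte markers, which define the labelled tissue, took 1.37% to 2.11%, 0.151% to 0.252% and 2.71% to 3.35% in the same order of groups. The ribosomal RNA precursor Rn45s had 84600 to 220000 CPM in NGO-treated, 241000 to 312000 CPM in stripped control and 115000 to 138000 CPM in unstripped libraries. Red blood cell markers summed to 304 to 486 CPM in NGO-treated, 1028 to 1491 CPM in stripped control and 41.6 to 155.5 CPM in unstripped libraries, and blood endothelium markers to 240 to 383.5 CPM, 408 to 746 CPM and 45.4 to 63.6 CPM in the same order. All of these were highest in stripped control skin except the keratinocyte markers, which were lowest there. The part of these shifts in the values below was not tested. In the red blood cell sum, Hbb-bs and Hbb-b1 had the same or nearly the same counts in every library. In stripped control replicate 2 they had 801 and 769. Their reads may therefore be counted more than once in that sum.

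The 8 genes were measured on few reads. Their counts ran from 0 to 578 per library, and 5 of the 72 values were 0. All 8 passed the low-count filter, which asks for 3.34 CPM in 3 libraries, and 7 of them reached that level in at least 1 library of every group. Cd163 reached it in 2 NGO-treated libraries, 1 stripped control library and no unstripped library. The 8 genes together made up 123 to 197 CPM in NGO-treated, 171 to 348 CPM in stripped control and 56.9 to 121 CPM in unstripped libraries.

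Lyz2 carries a doubt of its own, because the 3′ end that the assay reads is nearly the same in its neighbour Lyz1, the lysozyme gene of intestinal Paneth cells. Lyz2 lies on chromosome 10 (mm10, 117277331 to 117282321, minus strand) and Lyz1 at 117287797 to 117292868, with 5475 bases between them. The last 300 bases of the 2 transcripts were 96.9% identical over 295 aligned bases, and the coding sequences were identical at 425 of 447 bases. The untranslated 3′ regions, 790 bases in Lyz2 and 786 in Lyz1, were 96.3% identical over 785 aligned bases. The last 120 coding bases lie before these regions and so outside the last 300 bases. They differ at 2 positions, which makes them more alike than the coding sequences as a whole (95.1% identical). They are printed from the GENCODE transcripts (5′ to 3′, capitals where the genes differ):
Lyz2: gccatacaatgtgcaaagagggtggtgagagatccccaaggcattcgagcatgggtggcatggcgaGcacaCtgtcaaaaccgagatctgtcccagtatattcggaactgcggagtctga
Lyz1: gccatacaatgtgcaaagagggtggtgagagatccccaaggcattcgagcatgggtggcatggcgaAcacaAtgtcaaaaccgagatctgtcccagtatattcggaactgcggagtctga
The treatment of reads that match both genes during counting is not stated.

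Promoters of 6 of the 8 genes were found in the RefSeq promoter table (GRCm38.p6). Those of Cd68, the member called in the tests below, and of C1qb and C1qc, neighbours whose counts went apart, are printed from 250 bases before to 50 bases after the gene start, 5′ to 3′ on the gene's own strand. Capitals mark 2 motifs searched on both strands, the PU-box core GAGGAA (or TTCCTC), bound by the myeloid factor PU.1, and the AP-1 motif TGANTCA, which do not overlap each other in these 3 sequences.
Cd68 (chr11:69666121-69666420, minus strand): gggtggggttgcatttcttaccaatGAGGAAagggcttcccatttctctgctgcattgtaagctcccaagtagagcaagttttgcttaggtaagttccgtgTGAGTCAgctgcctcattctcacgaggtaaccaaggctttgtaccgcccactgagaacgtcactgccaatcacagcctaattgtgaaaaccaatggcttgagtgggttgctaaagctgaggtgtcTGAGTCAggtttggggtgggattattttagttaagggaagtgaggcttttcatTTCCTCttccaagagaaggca
C1qb (chr4:136886151-136886450, minus strand): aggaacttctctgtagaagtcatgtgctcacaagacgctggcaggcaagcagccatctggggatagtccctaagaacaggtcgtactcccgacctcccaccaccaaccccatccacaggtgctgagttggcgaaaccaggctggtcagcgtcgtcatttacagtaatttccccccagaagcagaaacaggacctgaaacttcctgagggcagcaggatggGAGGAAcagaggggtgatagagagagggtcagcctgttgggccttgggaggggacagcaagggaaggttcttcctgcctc
C1qc (chr4:136892865-136893164, minus strand): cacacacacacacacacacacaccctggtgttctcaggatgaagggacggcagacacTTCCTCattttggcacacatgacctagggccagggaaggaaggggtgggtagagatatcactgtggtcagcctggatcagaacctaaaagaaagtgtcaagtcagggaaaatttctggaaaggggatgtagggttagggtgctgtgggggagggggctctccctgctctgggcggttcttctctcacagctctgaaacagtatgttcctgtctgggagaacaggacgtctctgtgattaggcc
The Cd68 window held 2 PU-boxes and 2 AP-1 motifs, while the C1qb and C1qc windows held 1 PU-box each and 0 AP-1 motifs. Of the windows not printed, that of Mrc1 held 3 PU-boxes and 0 AP-1 motifs, and those of Lyz2 and Cd163 held 0 of either. Of 32851 promoter windows of this length, 28.3% held the PU-box letters and 7.81% the AP-1 letters. Such matches describe the letters and show no binding.

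Cd68 separated the 3 groups. It had 48.3, 21.3 and 39.8 CPM in NGO-treated, 54.8, 188 and 179 CPM in stripped control and 10.3, 7.37 and 3.24 CPM in unstripped libraries (chromosome 11, 69664213 to 69666153, minus strand, no overlapping gene). Every stripped control library was above every NGO-treated library, and every NGO-treated library above every unstripped one, although stripped control replicate 1, at 54.8 CPM, lay close to NGO replicate 1. Cd68 rose in stripped control over unstripped skin by a log2 fold change of 4.33 ± 0.65 (SE, edgeR adjusted p = 0.000553), and it passed in all 18 alternative fits. With Rn45s, muscle, adipocyte, hair and blood genes left out of the library sizes, the Cd68 value was 4.34 (edgeR adjusted p = 0.00054). That fit changes the scaling alone, and the part of the tissue sampled in the Cd68 values was not tested. In NGO-treated against stripped control skin the change was -1.95 ± 0.58 (95% interval -3.19 to -0.709, edgeR adjusted p = 0.0686), and against unstripped skin 2.38 ± 0.60 (edgeR adjusted p = 0.0578), so neither passed. In the 18 alternatives these changes passed 4 and 5 times (adjusted p 0.00924 to 0.187 and 0.00492 to 0.269). Both passed by edgeR without stripped control replicate 1 (adjusted p = 0.0162 and 0.0158), with DESeq2 (0.00924 and 0.00492) and with limma-voom (0.0343 and 0.0167).

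Lyz2 was high in 1 library. It had 0.906, 6.48 and 5.32 CPM in NGO-treated, 15.5, 69.9 and 9.64 CPM in stripped control and 2.06, 2.36 and 3.83 CPM in unstripped libraries. The stripped control libraries lay above all others without overlap, and replicate 2 of that group alone held 215 of its 275 counts. The fitted changes were 3.51 ± 1.21 for stripped control against unstripped skin (edgeR adjusted p = 0.0722), -2.89 ± 1.17 for NGO-treated against stripped control skin (0.173) and 0.62 ± 1.12 for NGO-treated against unstripped skin (0.970). The first passed in 4 of the 18 alternative fits. These were edgeR without stripped control replicate 1 or replicate 3 (adjusted p = 0.0441 and 0.0426), DESeq2 (0.00389) and limma-voom (0.0204). The change in NGO-treated against stripped control skin passed in 1 of 18, with DESeq2 (adjusted p = 0.0318). Lyz1 had 22, 1 and 0 counts in NGO-treated, 0, 37 and 19 in stripped control and 1, 5 and 9 in unstripped libraries, so NGO replicate 1, the library with the fewest Lyz2 counts, had more counts on Lyz1 than on Lyz2.

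Neutrophils also express Lyz2. The 19 neutrophil markers in the tables summed to 607 to 1870 CPM in NGO-treated, 3836 to 10820 CPM in stripped control and 85.5 to 119 CPM in unstripped libraries. Most of the sum in stripped skin was S100a8 and S100a9, both named after their values were seen. S100a8 averaged 387 CPM in NGO-treated, 2510 CPM in stripped control and 2.39 CPM in unstripped skin, and S100a9 547, 3090 and 2.26 CPM. The sum mainly follows these genes and is no measure of neutrophils. Of 15 tested markers, 8 rose with stripping (5.97% of all genes did), and 5 fell with NGO against stripped control (1.18% did). The precursor markers Camp, Elane and Mpo were at 0 in all 9 libraries, and Ngp, Cd177, Clec4d and Stfa2l1 were at 0 in unstripped skin. Not every marker followed the sum. Cxcr1 had 6.64, 0 and 15 CPM in NGO-treated libraries and was at 0 in stripped control and unstripped skin. Stfa2 had 8.15, 39.8 and 46.6 CPM in NGO-treated, 10.9, 7.47 and 3.21 CPM in stripped control and 5.5, 2.06 and 0 CPM in unstripped libraries. Ltf had 6.64, 17.3 and 3.33 CPM in NGO-treated, 0, 0 and 4.5 CPM in stripped control and 1.03, 4.13 and 2.36 CPM in unstripped libraries. Neither Stfa2 nor Ltf passed in NGO-treated against stripped control skin (edgeR adjusted p = 0.357 and 0.485), and these 3 markers are named after their values were seen. The part of neutrophils in the Lyz2 values was not tested.

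**Figure D1:**
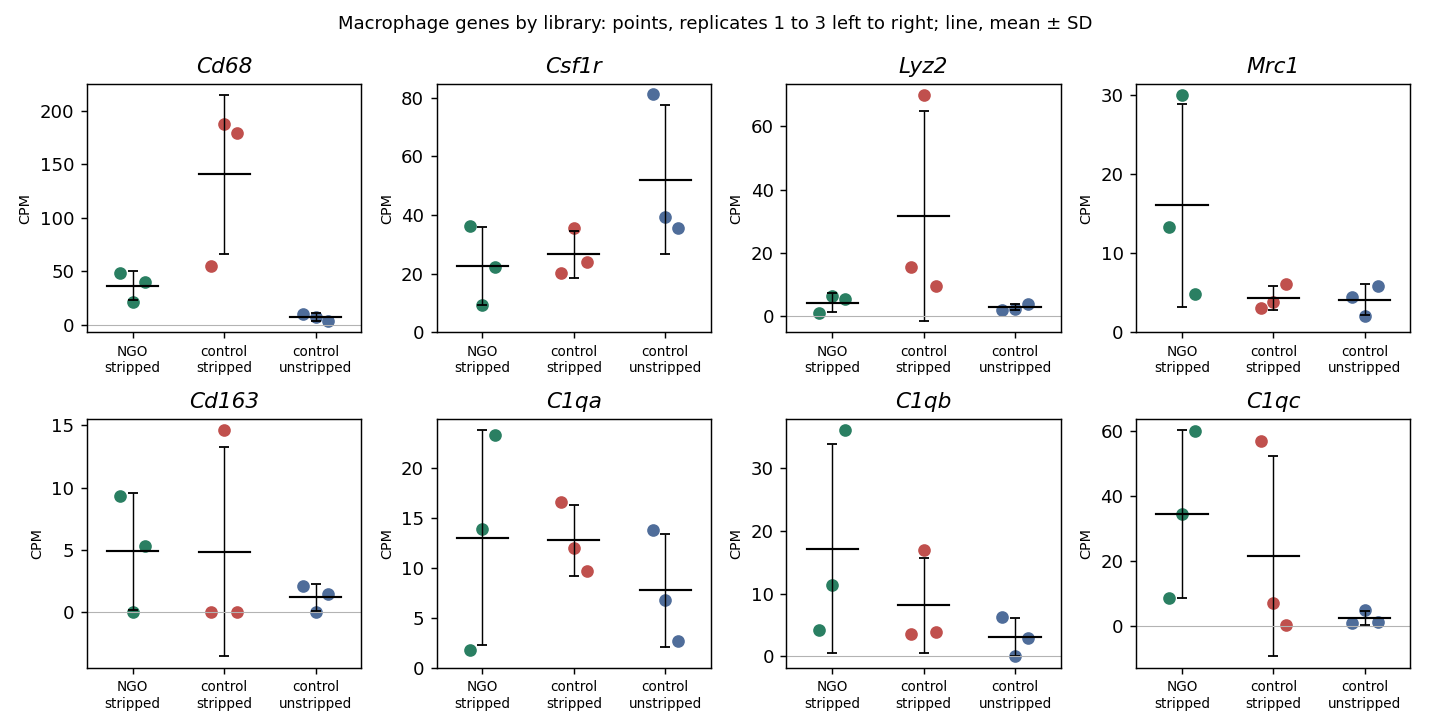
CPM of each of the 8 genes (y axis, 1 scale per panel) in the 3 groups (x axis), with points for replicates 1 to 3 and lines for the mean and SD. Cd68 shows 3 separate groups, with 36.5, 140 and 6.98 CPM on average in NGO-treated, stripped control and unstripped skin, and most other genes overlap between groups.

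Csf1r, also used as a mark of macrophages, did not follow Cd68. It had 36.2, 9.48 and 22.3 CPM in NGO-treated, 20.2, 35.7 and 24.1 CPM in stripped control and 81.2, 39.2 and 35.7 CPM in unstripped libraries. Unstripped replicate 1 was the highest and NGO replicate 2 the lowest, and the groups overlapped. The log2 fold changes were -0.96 ± 0.63 for stripped control against unstripped skin (95% interval -2.32 to 0.40, edgeR adjusted p = 0.368), -0.24 ± 0.63 for NGO-treated against stripped control (0.878) and -1.20 ± 0.63 for NGO-treated against unstripped skin (0.540). The count of Cd68 was 1.33, 2.24 and 1.78 times that of Csf1r in NGO-treated libraries, 2.72, 5.25 and 7.41 times in stripped control and 0.127, 0.188 and 0.0909 times in unstripped libraries. These ratios do not depend on library scaling and did not overlap between any pair of groups. The share of all gene pairs with such ratios was not computed. Cd68 over Mrc1 overlapped between NGO-treated (3.64, 0.708 and 8.24) and unstripped libraries (2.31, 3.57 and 0.55), with 17.7, 48.2 and 29.3 in stripped control. Lyz2 over Csf1r, at 0.025, 0.683 and 0.239 in NGO-treated libraries, overlapped with stripped control (0.769, 1.95 and 0.4) and unstripped libraries (0.0254, 0.0602 and 0.107).

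The Csf1r counts need care because of where the gene ends. Csf1r (chromosome 18, 61100598 to 61132149, plus strand) shares its last 873 bases with the end of Hmgxb3 on the opposite strand, all of them exonic in both genes, and strand use in counting is not stated. Without strand, reads of the 2 genes cannot be told apart there. Hmgxb3 had 45.3, 84.9 and 67.2 CPM in NGO-treated, 119, 55.2 and 118 CPM in stripped control and 107, 74.3 and 69.0 CPM in unstripped libraries, and it passed in no comparison (edgeR adjusted p = 0.926 for NGO-treated against unstripped skin, 0.488 for NGO-treated against stripped control and 0.804 for stripped control against unstripped skin). Csf1r over Hmgxb3 was 0.800, 0.112 and 0.332 in NGO-treated, 0.169, 0.647 and 0.205 in stripped control and 0.756, 0.528 and 0.517 in unstripped libraries, so the 2 genes did not keep 1 ratio.

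Langerhans cells carry Csf1r as well. The 14 Langerhans and dendritic cell markers summed to 315 to 360 CPM in NGO-treated, 143 to 261 CPM in stripped control and 782 to 851 CPM in unstripped libraries. Most of this sum was Cd74, Epcam, H2-Aa, H2-Ab1 and H2-Eb1, so it is no measure of Langerhans cells. The Langerhans marker Cd207 had 0, 0 and 2.16 CPM in NGO-treated, 0.517, 0 and 0 CPM in stripped control and 8.25, 20.3 and 9.14 CPM in unstripped libraries. These genes are named after their values were seen. Of 9 tested markers, 4 fell with stripping (7.64% of all genes did) and 1 rose with NGO against stripped control (3.87% did). Zbtb46 and Clec9a were at 0 in all libraries. The part of Langerhans and dendritic cells in the Csf1r values was not tested.

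**Figure D2:**
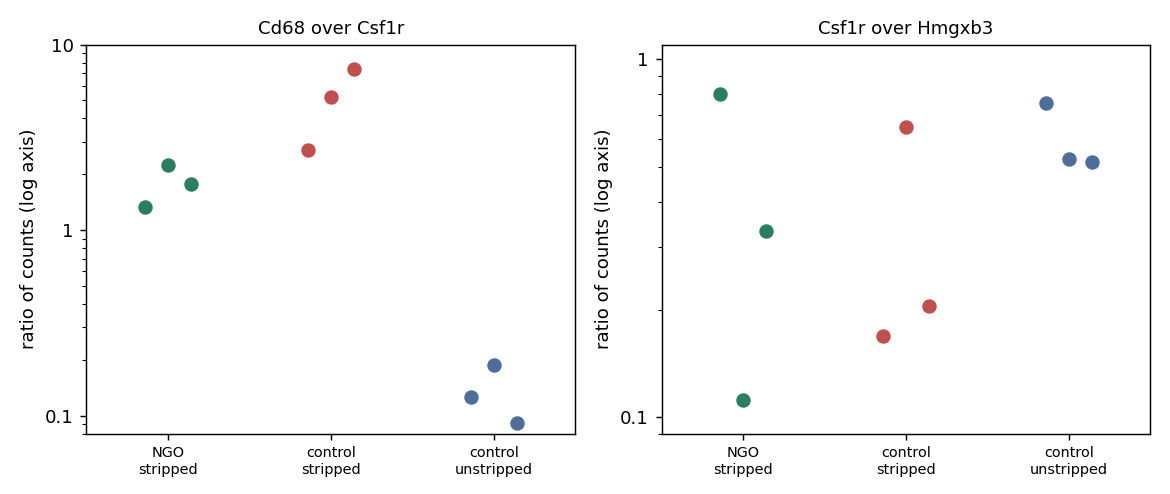
Ratio of counts of Cd68 to Csf1r (left) and of Csf1r to Hmgxb3 (right) on log axes, 1 point per library, in NGO-treated, stripped control and unstripped skin. The Cd68 ratio runs from 1.33 to 2.24, from 2.72 to 7.41 and from 0.0909 to 0.188 in these groups, and the ratio of Csf1r to Hmgxb3 overlaps between all of them.

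Mrc1 and Cd163, the 2 receptors used as marks of resident macrophages, did not pass in any comparison. Mrc1 (chromosome 2, 14229392 to 14332057, plus strand, with Mir511 inside it) had 13.3, 30.1 and 4.82 CPM in NGO-treated, 3.10, 3.90 and 6.11 CPM in stripped control and 4.47, 2.06 and 5.90 CPM in unstripped libraries. Stripped control and unstripped libraries covered almost the same range (0.08 ± 1.22, 95% interval -2.54 to 2.70, edgeR adjusted p = 0.981). NGO replicates 1 and 2 lay above all 6 control cream libraries, while NGO replicate 3, the deepest library, lay among them. The change was 1.87 ± 1.25 for NGO-treated against stripped control skin (95% interval -0.817 to 4.55, edgeR adjusted p = 0.426) and 1.95 ± 1.25 against unstripped skin (0.675). Lymphatic endothelium also expresses Mrc1, and its 7 markers summed to 132 to 286 CPM in NGO-treated, 302 to 350 CPM in stripped control and 48.3 to 96.7 CPM in unstripped libraries, with Prox1 at 0 in NGO-treated and Mmrn1 at 0 in unstripped skin. Most of this sum was Pdpn, which is not particular to lymphatic vessels, at 94.8, 239 and 160 CPM in NGO-treated, 306, 300 and 234 CPM in stripped control and 71.5, 37.7 and 63.7 CPM in unstripped libraries. Prox1, Ccl21a and Mmrn1 had at most 5.17, 4.66 and 7.15 CPM in any library, so the sum is no measure of lymphatic endothelium. Of the 3 tested markers 1 rose with stripping, Pdpn, named here after its values were seen (2.28 ± 0.40, edgeR adjusted p = 0.00171). In that comparison 5.97% of all genes rose. The part of lymphatic endothelium in the Mrc1 values was not tested.

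Cd163 was on and off between replicates. It had 31, 0 and 32 counts in NGO-treated, 0, 45 and 0 in stripped control and 6, 0 and 5 in unstripped libraries (chromosome 6, 124304656 to 124330527, plus strand). A single library, stripped control replicate 2, held every count of its group, and the value of 0 in the other two allows up to 1.55 and 0.964 CPM (3 counts, counting error alone). The fitted changes had intervals of -4.71 to 4.70 for NGO-treated against stripped control and of -2.98 to 7.04 for stripped control against unstripped skin (edgeR adjusted p = 1 and 0.646), which leave room for large changes either way. In stripped control skin Cd163 varied by 173% between libraries, against 25.8% from counting alone. Without stripped control replicate 2 the fitted change of stripped control against unstripped skin turned to -5.06 and that of NGO-treated against stripped control to 7.12, neither of them called.

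The 3 C1q chains lie side by side on chromosome 4 on the minus strand (C1qb 136880129 to 136886187, C1qc 136889804 to 136893065, C1qa 136895917 to 136898803), with gaps of 3616 and 2851 bases. C1qa had 1.81, 13.9 and 23.3 CPM in NGO-treated, 16.6, 12.0 and 9.64 CPM in stripped control and 13.8, 6.78 and 2.65 CPM in unstripped libraries. C1qb had 4.23, 11.3 and 36.1 CPM in NGO-treated, 3.62, 16.9 and 3.86 CPM in stripped control and 6.19, 0 and 2.95 CPM in unstripped libraries. C1qc had 8.45, 34.5 and 60.2 CPM in NGO-treated, 56.9, 7.15 and 0.321 CPM in stripped control and 1.03, 5.01 and 1.18 CPM in unstripped libraries. C1qc was the 1 chain whose NGO-treated libraries lay above all unstripped ones, and NGO replicate 3 held the most of every chain. None of the chains passed in the reported fit. For C1qc the change was 3.81 ± 1.43 in NGO-treated against unstripped skin (95% interval 0.737 to 6.89, edgeR adjusted p = 0.269), 0.69 ± 1.27 in NGO-treated against stripped control (0.815) and 3.12 ± 1.39 in stripped control against unstripped skin (0.163). For C1qa and C1qb the edgeR adjusted p ran from 0.608 to 0.994. In NGO-treated against unstripped skin C1qb passed in 1 and C1qc in 2 of the 18 alternative fits. Limma-voom called C1qb (adjusted p = 0.041) and C1qc (0.0217), and edgeR with the 2 groups alone called C1qc (0.0398).

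Since the chains form 1 protein, their shares of the summed C1q counts were compared between libraries. C1qc took 58.3%, 57.8% and 50.3% in NGO-treated libraries, 73.8%, 19.8% and 2.33% in stripped control and 4.92%, 42.5% and 17.4% in unstripped libraries. In this share of C1qc the NGO-treated libraries were alike, and the stripped control libraries ran from nearly none to most. C1qb took 29.2%, 19.0% and 30.2% in NGO-treated libraries. Its exact binomial 95% intervals in NGO replicates 2 and 3, 14.4% to 24.3% and 26.8% to 33.7%, did not overlap. C1qa took 12.5%, 23.3% and 19.5% there. The exact binomial 95% intervals of the C1qc share in stripped control replicates 1 and 3 were 66.0% to 80.7% and 0.0589% to 12.3%, so the 2 libraries differ by more than counting error, which is all these intervals cover. C1qb was at 0 of 40 counts in unstripped replicate 2, with an exact 95% interval that reaches 8.81%. The summed C1q level was 14.5, 59.7 and 120 CPM in NGO-treated, 77.1, 36.1 and 13.8 CPM in stripped control and 21.0, 11.8 and 6.78 CPM in unstripped libraries, which overlap between all groups.

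**Figure D3:**
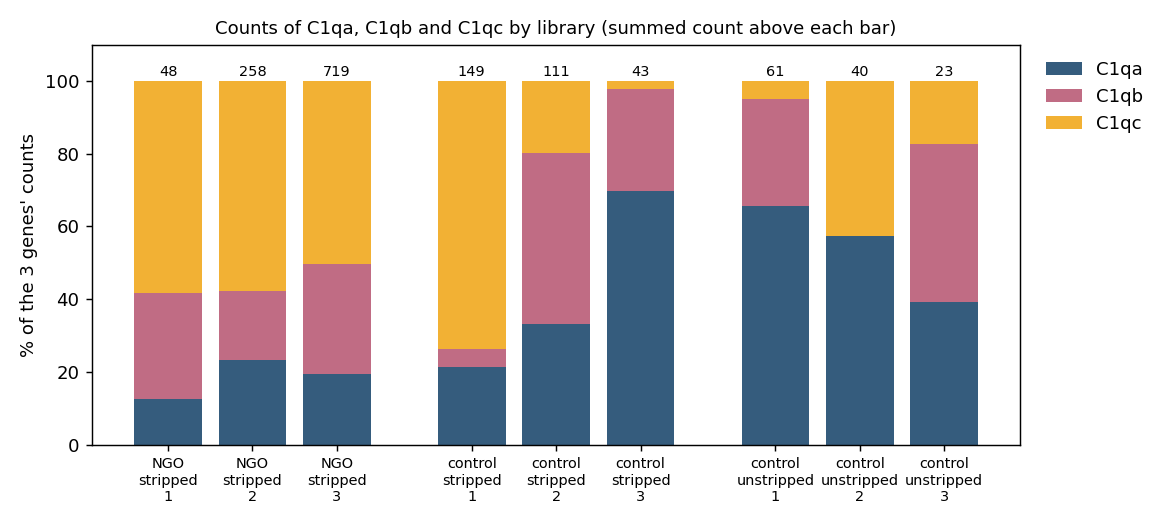
Share of C1qa, C1qb and C1qc in their summed count (y axis, %) for each library (x axis), with the summed count, 23 to 719, above each bar. The 3 NGO-treated libraries hold 50.3% to 58.3% C1qc, while stripped control libraries run from 2.33% to 73.8%.

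Counted over the set, 1 of 8 genes rose and 0 fell in stripped control against unstripped skin, where 13.6% of the 13740 genes tested were called, 5.97% as higher and 7.64% as lower. With NGO 0 of 8 were called against stripped control, where 5.05% of all genes were, and 0 of 8 against unstripped skin, where 2.51% were (edgeR quasi-likelihood test). At an unadjusted p under 0.05 the members numbered 3, 2 and 2 in these comparisons, against 27.9%, 21.2% and 11.7% of all genes. DESeq2 called 2, 2 and 1 members, beside 2976, 1721 and 756 of all 13740 genes. By limma-voom 2, 1 and 3 members were called, beside 2589, 414 and 1353 of all genes. Cd68 and Lyz2 were higher without overlap in stripped control than in unstripped skin (13.8% of all genes were, 24.7% were lower without overlap, and 38.5% did not overlap in either direction) and lower without overlap in NGO-treated than in stripped control skin (8.92% of all genes, with 16.3% higher and 25.2% in either direction). In NGO-treated against unstripped skin, Cd68 and C1qc were higher without overlap (11.9% of all genes, with 26.2% in either direction). The median log2 fold change of the 8 was 1.72 in stripped control against unstripped, 0.01 in NGO-treated against stripped control and 1.98 in NGO-treated against unstripped skin, beside -0.20, 0.07 and -0.07 over all genes tested. The comparisons share libraries, so their values are not independent of each other.

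**Figure D4:**
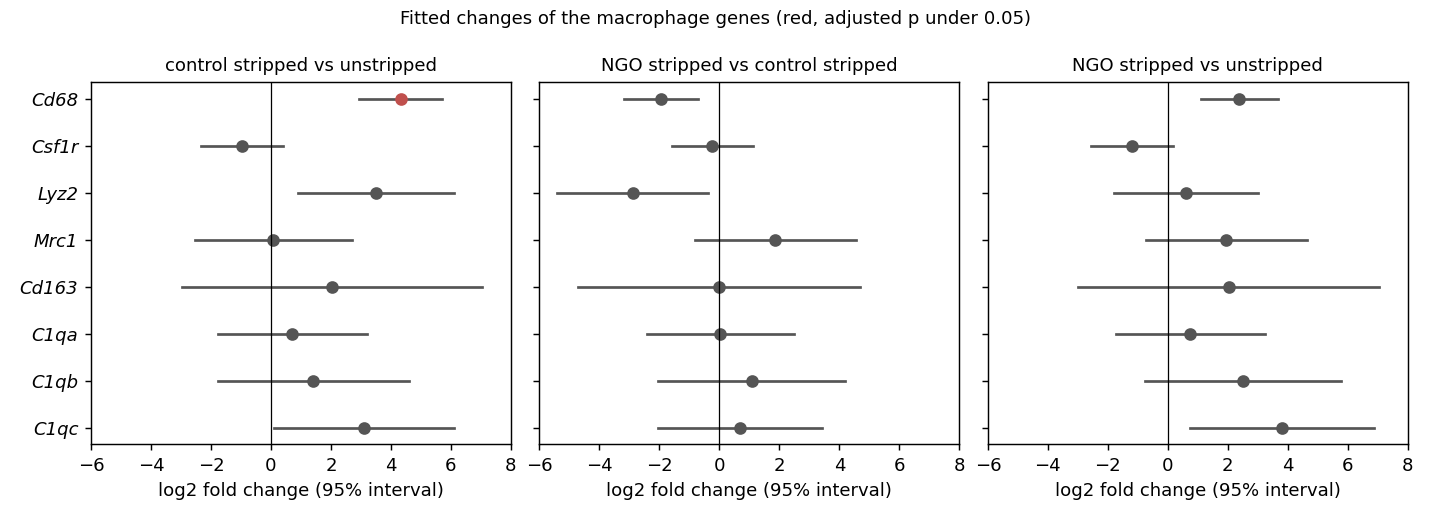
Fitted log2 fold changes (points) with 95% intervals (lines) of the 8 genes (y axis) in the 3 comparisons. Cd68 in stripped control against unstripped skin (4.33, red) is the value past the threshold, and the intervals of Cd163 span more than 9 log2 units in each panel.

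Replicates of the 8 genes differed widely. The biological coefficient of variation fitted by edgeR was 49.6% for Cd68 and 54.6% for Csf1r, and 86.6% to 187% for the other 6, highest for Cd163, beside a median of 73.2% over all genes. In stripped control skin the values of C1qc varied by 144% between libraries, against 15.0% from counting alone. The members also differed from each other: over the 9 libraries, the root mean square difference of centred log2 CPM was 1.39 to 2.75 among their 28 pairs, with the smallest between Lyz2 and C1qa. Each member was also set beside 12126 genes outside the set, so many that some small distances arise from the number of candidates, and nothing is read from them about the set. Those nearest to Cd68 were Pdlim7 (0.347 log2 units), Tcea3 (0.412) and Nudt4 (0.438). Slc31a1 (0.293) came nearest to Csf1r, Spp1 (0.609), Rac2 (0.617) and Slc15a3 (0.645) to Lyz2, Trak2 (0.477) to Mrc1, Nfkbid (0.795) to Cd163, Ccdc171 (0.423) to C1qa, Klk6 (0.470) to C1qb and Gfpt2 (0.774) to C1qc. All 9 libraries and their depths are shared by these distances, which are descriptions.

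Other macrophage genes were tested in the same fit, in which 5.97% of all genes were called higher and 7.64% lower in stripped control against unstripped skin. Of all 13740 genes DESeq2 called 1428 higher and 1548 lower there, and limma-voom 1405 and 1184. Of 18 general macrophage and myeloid genes 1 rose and 0 fell (median 1.19), a share near that of all genes, while DESeq2 and limma-voom each called 6 higher. It was Fcer1g, the signalling chain of Fc receptors, at 45.6, 37.9 and 29.8 CPM in NGO-treated, 75.0, 140 and 60.4 CPM in stripped control and 17.2, 18.6 and 15.3 CPM in unstripped libraries (2.43 ± 0.49, edgeR adjusted p = 0.00466). Its partner Tyrobp had 2.59 ± 0.82 and the integrin gene Itgam 4.6 ± 1.65 (edgeR adjusted p = 0.0507 and 0.084). Of 10 monocyte genes 1 rose, with a median of 3.32 and all 10 fitted values above 0, while DESeq2 called 6 higher and limma-voom 5. This was Cd14, the lipopolysaccharide co-receptor that neutrophils express too, at 9.66, 60.1 and 13.8 CPM in NGO-treated, 124, 442 and 124 CPM in stripped control and 0, 0 and 2.65 CPM in unstripped libraries (7.92 ± 1.19, edgeR adjusted p = 0.000594). Chil3 and Ly6c2, also expressed by monocytes, had 4.67 ± 1.46 and 3.26 ± 1.18 (edgeR adjusted p = 0.0507 and 0.0859).

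Of 14 genes induced in activated macrophages 6 rose and 0 fell by all 3 tools (median 2.82). Neutrophils and other cells express several of them. The neutrophil marker sum given above, mostly S100a8 and S100a9 in stripped skin, was also higher in this comparison. The part of neutrophils in these values was not tested. Spp1, which encodes osteopontin, rose by 3.07 ± 0.50 and Clec4e, which encodes the receptor Mincle, by 6.19 ± 1.04 (edgeR adjusted p = 0.000980 and 0.00134). Socs3, an inhibitor of cytokine signalling, rose by 2.71 ± 0.49 (0.00226). Resident macrophage genes moved both ways, 2 of 12 higher and 3 lower by edgeR, 3 and 3 by DESeq2 and 2 and 1 by limma-voom (median -0.13, or 0.05 with 2 genes that were at 0 in a group set to their bound). Pf4, also abundant in platelets, rose to 148, 123 and 138 CPM in stripped control libraries, against 10.3, 9.43 and 13 CPM in unstripped ones (3.64 ± 0.48, edgeR adjusted p = 0.000230). Maf, a transcription factor of resident macrophages that other skin cells express too, fell to 27.4, 15.9 and 4.82 CPM in stripped control, against 91.5, 113 and 72.5 CPM in unstripped libraries (-2.54 ± 0.57, 0.00971). Cd209f, a lectin gene, rose by 2.13 ± 0.52 (0.0142), and that call was lost without any 1 of the unstripped libraries (edgeR adjusted p up to 0.0687).

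The ligands of Csf1r differed from each other. Il34, which keratinocytes make, had 49.8, 10.6 and 19.0 CPM in NGO-treated, 0, 20.5 and 3.86 CPM in stripped control and 279, 165 and 176 CPM in unstripped libraries, and it fell with stripping (-4.62 ± 0.98, edgeR adjusted p = 0.00651, or 0.0741 without the low-count filter). Csf1 had 16.0, 31.7 and 13.1 CPM in NGO-treated, 76.0, 63.0 and 60.7 CPM in stripped control and 11, 51.6 and 33 CPM in unstripped libraries, and did not pass (1.06 ± 0.61, edgeR adjusted p = 0.291 with stripping, and -1.71 ± 0.62, 0.130 with NGO against stripped control). Csf3, the neutrophil growth factor gene, was at 0 in unstripped skin and at least 105-fold higher in stripped control skin (floor of 3 counts over the group, edgeR adjusted p = 0.0121). Csf2rb, a shared cytokine receptor chain, also rose (1.83 ± 0.46, 0.0174), a call lost without unstripped replicate 1 or 3 (edgeR adjusted p = 0.0672 and 0.0861). In all 2 of 7 tested genes of this group rose and 1 fell (median 0.99).

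Among the functions that the 8 genes serve, complement genes other than C1q gave 5 higher and 0 lower of 17 with stripping (median 1.17). Cfd, an adipocyte product also called adipsin, rose by 6.28 ± 0.47, C5ar2, a receptor for C5a, by 2.30 ± 0.37 and Cfb, a component of the alternative pathway, by 4.12 ± 0.75 (edgeR adjusted p = 9.83e-06, 0.000947 and 0.00224). Lysosomal genes, the compartment of the Cd68 protein, gave 3 higher and 1 lower of 20 (median 0.15), while DESeq2 called 5 higher and limma-voom 4. The cathepsin gene Ctsz rose by 2.62 ± 0.57 and Cd63, which encodes a lysosomal membrane protein, by 1.41 ± 0.32 (edgeR adjusted p = 0.00739 and 0.00973). Lamp2, another lysosomal membrane gene, fell (-1.22 ± 0.31, 0.0182). The Cd63 call was lost without unstripped replicate 2 or 3 (edgeR adjusted p up to 0.0594), and the Lamp2 call without any 1 unstripped library or stripped control replicate 2 (up to 0.079). Haem and iron genes, the pathway that Cd163 feeds, gave 4 higher and 1 lower of 11 (median 1.80). Hp, which encodes the haptoglobin that Cd163 binds in complex with haemoglobin, had 183, 206 and 184 CPM in NGO-treated, 444, 376 and 181 CPM in stripped control and 5.85, 8.55 and 5.01 CPM in unstripped libraries (5.68 ± 0.45, edgeR adjusted p = 1.08e-05 for stripped control against unstripped). The ferritin genes Ftl1 and Fth1 rose by 3.40 ± 0.41 and 2.33 ± 0.30 (edgeR adjusted p = 0.000130 and 0.000198).

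With NGO against stripped control skin fewer of these genes passed. In the general macrophage and monocyte groups 0 of 18 and 0 of 10 were called by edgeR (median -0.77 and -1.07). At an unadjusted p under 0.05 there were 2 in each, DESeq2 called 2 and 1 lower, and limma-voom 0 and 1. The genes with the smallest p were Tyrobp (-2.74 ± 0.82, edgeR adjusted p = 0.071) and Cd14 (-3.04 ± 0.90, 0.068). Of 14 activation genes 2 fell (median -1.38), while DESeq2 called 6 lower and limma-voom 4. They were Spp1, with 45.6, 80.3 and 45.9 CPM in NGO-treated against 209, 546 and 155 CPM in stripped control libraries (-2.41 ± 0.48, edgeR adjusted p = 0.0145), and Mmp12, the macrophage elastase (-2.88 ± 0.76, 0.0477). The Spp1 call did not hold when NGO replicate 1 or 3 was left out (edgeR adjusted p = 0.078 and 0.0637), and the Mmp12 call without any 1 of these 6 libraries or unstripped replicate 2 or 3 (edgeR adjusted p up to 0.135). Of 12 resident macrophage genes 2 rose and 0 fell (median 0.64), while DESeq2 called 3 higher and 1 lower and limma-voom 0. Maf, with 91.8, 55.5 and 71.5 CPM in NGO-treated against 27.4, 15.9 and 4.82 CPM in stripped control libraries, was among them (2.20 ± 0.57, edgeR adjusted p = 0.0426). Without any 1 NGO-treated library, any 1 unstripped library or stripped control replicate 2 the Maf call was lost (edgeR adjusted p up to 0.126), as it was with RLE scaling (0.0571), with limma-voom (0.11) and in a fit of these 2 groups alone (0.148).

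In the same comparison 1 of 17 complement genes fell, C5ar2 (-1.93 ± 0.37, edgeR adjusted p = 0.0116, and 0.0624 without NGO replicate 1). Of 20 lysosomal genes 0 were called, with Ctsz at -2.04 ± 0.56 (0.0514), and 0 of 7 genes of the colony-stimulating factor group were. At an unadjusted p under 0.05 there were 1 and 2 of them, DESeq2 called 1 and 2 lower, and limma-voom 0 and 0. Of 11 haem and iron genes 3 fell, Fth1 by 1.49, Hpx by 1.76 and Ftl1 by 1.41 on the log2 scale (edgeR adjusted p = 0.0133, 0.0250 and 0.0486). The Fth1 call did not hold when NGO replicate 1 or 3 was left out (edgeR adjusted p up to 0.078) and the Hpx call without any 1 NGO-treated library (up to 0.091). The Ftl1 call was lost in every fit that left out 1 library except stripped control replicate 1 (edgeR adjusted p up to 0.158). Read against the 1.18% of all genes that fell and the 3.87% that rose, these counts describe small lists. Of all 13740 genes DESeq2 called 678 lower and 1043 higher in this comparison, and limma-voom 219 and 195.

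Against unstripped skin, 5 of the genes of these lists were called higher in NGO-treated skin and 1 lower, in a fit that called 2.06% of all genes higher and 0.451% lower. The higher ones were 2 of 11 haem and iron, 1 of 17 complement, 1 of 12 resident macrophage and 1 of 10 monocyte genes. The lower one was 1 of the 12 resident macrophage genes. Of 18 general macrophage, 14 activation, 20 lysosomal and 7 colony-stimulating factor group genes 0 were called. Over all 13740 genes DESeq2 called 512 higher and 244 lower, and limma-voom 869 and 484. The other tools called more in some lists: of the complement genes edgeR called 1 higher and DESeq2 and limma-voom 5 each, and of the colony-stimulating factor group edgeR called 0, DESeq2 2 higher and 1 lower, and limma-voom 1 each way. Cfd had 5.55 ± 0.45, Hp 4.87 ± 0.44, Pf4 3.41 ± 0.47, Cd14 4.88 ± 1.1 and Ftl1 1.99 ± 0.39 (edgeR adjusted p = 7.47e-05, 9.41e-05, 0.00174, 0.0309 and 0.0117). The Cd14 call was lost without unstripped replicate 1 or 2, NGO replicate 2 or stripped control replicate 2 (edgeR adjusted p up to 0.166) and without the low-count filter (0.250). The Ftl1 call was lost without unstripped replicate 2 or 3 or NGO replicate 3 (up to 0.0865). Gas6, a ligand for the clearance of dead cells, was lower at 14.5, 25.9 and 29.3 CPM in NGO-treated, against 32.3, 200 and 215 CPM in unstripped libraries (-2.68 ± 0.61, edgeR adjusted p = 0.0316). The Gas6 call was lost without any 1 NGO-treated library, unstripped replicate 2 or 3 or stripped control replicate 2 or 3 (up to 0.162).

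**Figure D5:**
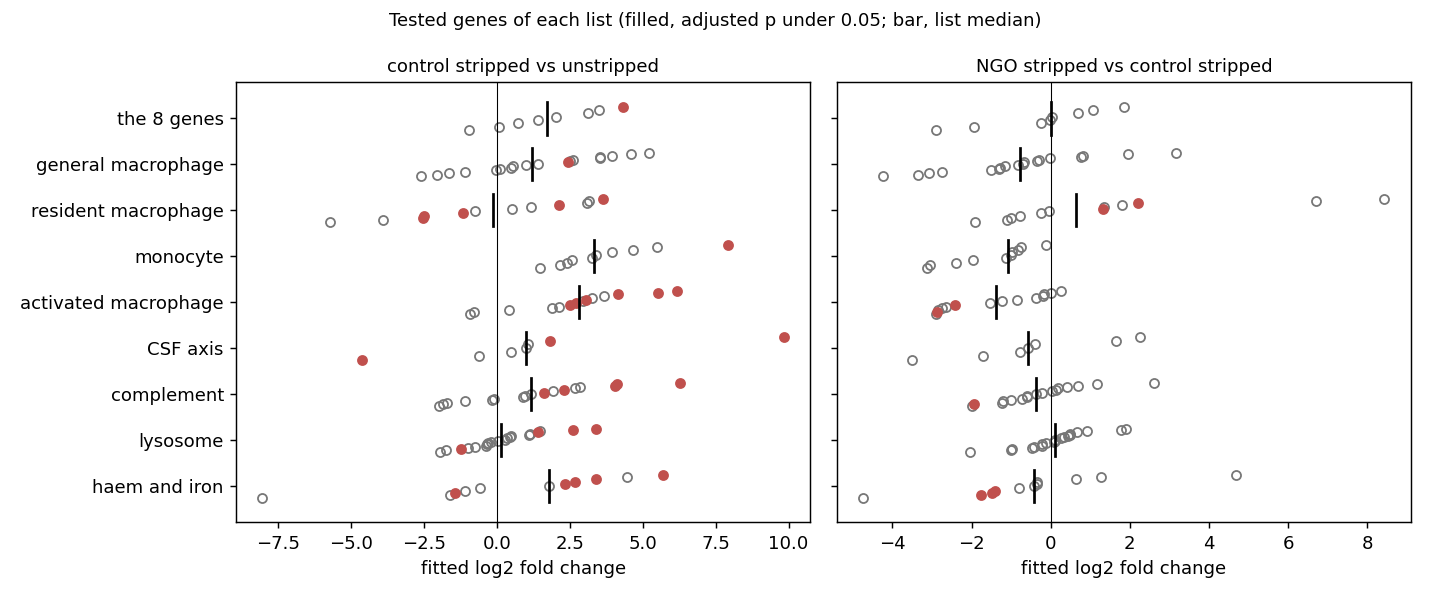
Fitted log2 fold change (x axis) of each tested gene in the 8 genes and 8 related gene lists (y axis), filled where the adjusted p is under 0.05, with a bar at each list's median, for stripped control against unstripped (left) and NGO-treated against stripped control skin (right). The monocyte list lies wholly above 0 on the left, with 1 of 10 called, and the activation list holds 6 filled points of 14 there.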

How the data were processed

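The authors deposited raw whole-number counts per gene symbol, 1 table per library. Per the labels' protocols RNA was isolated with Trizol, and 500 ng went into Lexogen QuantSeq 3′ libraries. Bowtie2, bedtools and mm10 are named in the submitters' processing notes; counting rules for strand, overlaps and multiple matches are not given in the sources used here. No entry lacked a name, and 44 repeat entries were kept apart. Counts were fitted in R 4.3.3 with edgeR 4.0.16 (robust quasi-likelihood, TMM factors, filterByExpr, all 9 libraries, 3 groups sharing 1 spread), with Benjamini-Hochberg adjustment over 13740 genes and calls at 0.05. CPM use TMM-scaled totals. The model was tested on simulated data. With 3 libraries against 3, no exact two-sided test can go below 0.1. Alternatives used RLE and upper-quartile scaling, other filters, DESeq2 1.42.0, limma 3.58.1, a replicate block, 2 groups alone, library sizes without muscle, adipocyte, hair, blood and Rn45s genes, and each library left out. Genes named from a list were drawn from its 3 with the smallest p in any comparison, not all of which are printed; other genes are said to be named after their values were seen. The 8 genes and the lists were chosen with earlier results of these data known. Coordinates and the Lyz sequences come from GENCODE M21, promoters from RefSeq; sequences were aligned with Biopython 1.88. The result of 1 gene of these lists is not reported here.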

Additional observations from a re-analysis of the deposited data

How the results depend on the processing

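The count of called members was 1 in stripped control against unstripped skin and became 2 with DESeq2 and limma-voom, and 1 to 2 with 1 library left out. In NGO-treated against stripped control skin it was 0, with 1 without the low-count filter, 2 with DESeq2, 1 with limma-voom and 0 to 1 with 1 library left out. In NGO-treated against unstripped skin it was 0, with 1 under upper-quartile scaling, without the filter, with DESeq2 and with the 2 groups alone, 3 with limma-voom and 0 to 1 with 1 library left out. The count over all genes in stripped control against unstripped skin was 1870, with 2976 by DESeq2 and 1124 to 2150 with 1 library left out (1197, 1130 and 1124 without unstripped replicate 1, 2 and 3). In NGO-treated against stripped control skin it was 694, with 1721 by DESeq2, 414 by limma-voom, 167 with the 2 groups alone and 196 to 921 with 1 library left out. In NGO-treated against unstripped skin it was 345, with 756 by DESeq2, 1353 by limma-voom, 624 with the 2 groups alone and 195 to 487 with 1 library left out. Of the genes called in NGO-treated against stripped control skin 76.7% were higher, against 66.6% with RLE scaling, which moved the median of all genes by -0.12, 60.6% with DESeq2 and 47.1% with limma-voom. In stripped control against unstripped skin 43.9% were higher, against 54.3% with limma-voom. In NGO-treated against unstripped skin 82.0% were higher, against 67.7% with DESeq2, 64.2% with limma-voom and 61.2% with the 2 groups alone.

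Of 432 fits of single members 396 kept direction and side of the threshold, 17 passed where the reported fit did not, and 19 turned direction, none of them called. In stripped control against unstripped skin Mrc1 turned to -0.24 and -0.22 without unstripped replicate 2 or stripped control replicate 3 (range with 1 library left out -0.24 to 0.42), and Cd163 to -5.06 without stripped control replicate 2 (range -5.06 to 2.69). In NGO-treated against stripped control skin Csf1r turned to 0.025 and 0.13 without stripped control or NGO replicate 2 (range -0.75 to 0.13), and C1qb to -0.064 without NGO replicate 3 (range -0.064 to 2.24). Cd163 there took 0.020 without the filter, 0.90 with limma-voom, 0.39 with the replicate block, 7.12 without stripped control replicate 2 and 0.58 without NGO replicate 2 (range -0.86 to 7.12). C1qa took -0.074 with RLE, -0.0061 with upper-quartile scaling, -0.072 with DESeq2, -0.54 with limma-voom, -0.074 without stripped control replicate 3, and -0.013 and -0.69 without NGO replicate 2 and 3 (range -0.69 to 0.55). Lyz2 in NGO-treated against unstripped skin took -0.0023 with limma-voom. The cause of these turns was not tested. Same-numbered libraries of different groups showed no shared deviation (correlation of deviations -0.057 to 0.086 over 9 pairs). Differently numbered libraries gave -0.135 to 0.067 over 18 pairs. With 3 libraries a group this cannot decide whether the numbers pair the samples, and the labels do not say. With the replicate block the members called stayed 1, 0 and 0, and all genes called were 1650, 559 and 313. In NGO-treated against stripped control skin the block ended the calls of Mmp12 and Ftl1 (adjusted p = 0.0708 and 0.0618). The spread between libraries was above counting error in the cases given, Cd163 and C1qc in stripped control skin. It lay close to counting error for Lyz2 in unstripped skin (34.4% against 33.3%). For Cd68 in stripped control skin it lay far above (52.9% against 4.92%). How much depth limits the tests of the 8 genes was not tested.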
